A study of Mus musculus with 6 samples.

Results

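The miRNAs described here are 8 entries that mark white blood cells or their activation: mmu-miR-142-3p, mmu-miR-142-5p, mmu-miR-150, mmu-miR-342-3p, mmu-miR-223, mmu-miR-155, mmu-miR-146a and mmu-miR-146b, written below without the species prefix. They were taken by name from the 698 mature miRNAs listed in the tables of both genotypes, and all 8 were found. The libraries came from the left ventricle of 3 mice heterozygous for the R719W mutation in Myh6 (genotype aMHC719/+, called R719W) and of 3 wild-type mice (WT). The α-myosin heavy chain that Myh6 encodes is the myosin motor of heart muscle cells, and R719W mice serve as a model of hypertrophic cardiomyopathy, in which the heart wall thickens. Every mouse of both genotypes had received cyclosporin for 3 weeks. Cyclosporin blocks the phosphatase calcineurin and thereby the activation of T lymphocytes, so the WT mice are controls for the genotype and not for the drug, and mice without the drug were not analysed here. The sources used here do not give age, sex or strain.

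A miRNA is a short RNA that guides repression of messenger RNAs carrying matches to its seed, the stretch near its 5′ end. Blood cells make a set of miRNAs that the other cells of the heart make little of or not at all. miR-142 is made across blood cell types, miR-150 and miR-342-3p are known above all from lymphocytes, and miR-223 from neutrophils, monocytes and platelets. miR-155, miR-146a and miR-146b are switched on when lymphocytes and macrophages are activated. Whole ventricle was sequenced, so fewer cells of a type and less of a miRNA per cell cannot be told apart. Reads of these miRNAs from other cells of the heart cannot be set aside either.

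The mature sequences show which of these miRNAs share a seed, and thus a set of possible targets. They are RefSeq's (GRCm38.p6), which held 7 of the 8 with a sequence identical to that in the deposited tables; each is written 5′ to 3′ with the seed, bases 2 to 8, in capitals.
miR-142-3p: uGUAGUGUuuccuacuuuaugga
miR-142-5p: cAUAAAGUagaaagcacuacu
miR-342-3p: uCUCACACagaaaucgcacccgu
miR-223: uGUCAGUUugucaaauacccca
miR-155: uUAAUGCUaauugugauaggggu
miR-146a: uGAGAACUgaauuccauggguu
miR-146b: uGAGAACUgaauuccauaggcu
miR-146a and miR-146b share their seed with each other and with no other listed entry, and the seeds of the other 5 each belonged to a single entry among the 698. Over their 22 bases, miR-146a and miR-146b differ at 2 positions counted from the 5′ end, G18A and U21C (miR-146a's base first). The sources used here do not say how reads that fit both were assigned. For the 7 matched miRNAs, GC content was highest in miR-342-3p, at 52.2%, and lay between 33.3% and 40.9% in the other 6.

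Both miR-142 entries come from the arms of a single hairpin, shown here because its arms were read at very different levels. The arms are in capitals, miR-142-5p first.
Mir142 hairpin: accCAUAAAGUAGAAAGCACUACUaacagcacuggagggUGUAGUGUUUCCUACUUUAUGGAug
It lies on chromosome 11 at 87756864 to 87756927 (GRCm38.p6, plus strand), in an intron of the noncoding gene Mir142hg, and Mir142b is annotated on the opposite strand over it. In GENCODE M21 the Mir342 hairpin (chromosome 12, 108658620 to 108658718, plus strand) lies in an intron of Evl, which encodes a regulator of actin filaments. Mir155 (chromosome 16, 84714140 to 84714204, plus strand) lies in an exon of the noncoding gene Mir155hg. Mir223 (chromosome X, 96242817 to 96242926, plus strand) lies in an exon of the noncoding gene F630028O10Rik. Mir146b (chromosome 19, 46342762 to 46342870, plus strand) lies in an intron of Mfsd13a, and Mir146, the hairpin of miR-146a (chromosome 11, 43374397 to 43374461, minus strand), lies in no other annotated gene. The 7 matched entries thus come from 6 hairpins, and miR-142-3p and miR-142-5p share a precursor.

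Leukocyte miRNAs were a small part of these libraries. The libraries held 765425 to 1192020 miRNA reads, and the 8 entries together took 0.120% to 0.143% of them in the R719W libraries and 0.0754% to 0.112% in the WT libraries, with 95% Wilson intervals of 0.114% to 0.127% for the lowest R719W library and 0.105% to 0.120% for the highest WT library. These shares averaged 0.134% ± 0.0120 in R719W and 0.0928% ± 0.0183 in WT (SD, n = 3 each), and the genotypes did not overlap. miR-142-3p alone made up 66.8% to 74.3% of the reads of the 8 entries in R719W and 55.2% to 60.7% in WT, so the sum followed mostly that miRNA. PCR copies cannot be recognised in these reads, so floors and intervals reflect counting error alone. Levels below are reads of a miRNA relative to all miRNA reads of its library (CPM) scaled between libraries by TMM, a trimmed mean over the miRNAs. The shares above are unscaled, and without this scaling log2 fold changes of R719W over WT lay higher by a median of 0.21. With it, the 8 entries summed to 1125 to 1502 in R719W and 908 to 1044 in WT, again without overlap. Such non-overlap was frequent: 24.9% of the miRNAs tested below were higher in every R719W library than in any WT library. The floor of a library, the level that 0 reads still allow, corresponds to 3 reads and lay between 2.40 and 4.06 TMM-normalised CPM. Markers of the labelled tissue were present: the cardiomyocyte miRNAs miR-1, miR-133a, miR-208a, miR-208b and miR-499 summed to 398348 to 547470 TMM-normalised CPM in R719W and 523746 to 786673 in WT. Of the markers of other tissues, the neuronal miR-124 had 0 reads and the liver miR-122 had 3 over all libraries. The neuronal miR-9 was above the floor, with means of 8.48 TMM-normalised CPM in R719W and 11.4 in WT.

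The lymphocyte miRNAs stood lower, and miR-142-3p and miR-223 stood higher, in R719W than in WT. Both lymphocyte entries passed the test. None of the others passed, although miR-142-3p and miR-223 were higher in every R719W library than in any WT library. Each miRNA was compared between R719W and WT with the quasi-likelihood test of edgeR, its p adjusted by Benjamini-Hochberg over the 181 miRNAs tested and the threshold set at 0.05. Of the 8 entries, 6 had enough reads to be tested, and miR-142-5p and miR-146b did not. Each of the 6 lay above the filter on low values, 10.5 unscaled CPM, in all 6 libraries, miR-342-3p by the least. Of the 6, 2 fell, 0 rose and 4 did not pass, where 19.9% of all tested miRNAs passed, 7.18% lower and 12.7% higher. At an unadjusted p below 0.05 there were 4 of the 6 in edgeR, of which miR-142-3p and miR-223 were higher, and 3 in DESeq2. Over the 181 tested miRNAs such values were frequent, with 68 in edgeR and 65 in DESeq2. By adjusted p, DESeq2 called 0 of the entries higher and 2 lower. The 6 entries had a median log2 fold change of 0.02 (−0.09 with DESeq2's size factors), beside 0.10 over all tested miRNAs, with 3 above 0 and 3 below.

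miR-150, which restrains the transcription factor Myb in developing lymphocytes, was measured at 95.8, 102.4 and 109 TMM-normalised CPM in R719W replicates 1, 2 and 3, against 191, 168 and 177 in WT replicates 1, 2 and 3. Every R719W library lay well below every WT library. In unscaled CPM the genotypes did not overlap either (91.0, 109.6 and 134 in R719W, against 172, 180 and 147 in WT). There the gap between R719W replicate 3 and WT replicate 3 was narrow beside their counting errors of 9.28% and 7.56%. The level averaged 102.5 ± 6.85 in R719W and 179 ± 11.4 in WT (SD, n = 3 each), a log2 fold change of −0.80 (SE 0.19, 95% interval −1.22 to −0.38; edgeR adjusted p = 0.0254). The value rested on 338 reads in R719W and 454 in WT, and the SD between libraries was no larger than the error of counting alone (9.71 in R719W and 14.6 TMM-normalised CPM in WT). The adjusted p was 0.160 with library totals alone as the scaling (log2 fold change −0.58), 0.0592 with totals without the 5 most abundant miRNAs, and 0.0694, 0.111 and 0.107 without R719W replicate 3, WT replicate 1 or WT replicate 3. The direction was negative in each of the 13 alternative fits, and 7 of them passed.

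miR-342-3p, cut from an Evl intron and abundant in lymphocytes, was much rarer, with 16, 14 and 10 reads in R719W replicates 1, 2 and 3, against 20, 25 and 29 reads in WT replicates 1, 2 and 3. In TMM-normalised CPM this was 16.3, 11.2 and 9.43 in R719W, against 27.1, 30.5 and 29.3 in WT. The genotypes did not overlap. The WT libraries lay closer together than the error of counting alone (5.87 TMM-normalised CPM) would place them, so their closeness does not measure the spread between mice. The level averaged 12.3 ± 3.56 in R719W and 28.95 ± 1.74 in WT (SD, n = 3 each), a log2 fold change of −1.24 (SE 0.29, 95% interval −1.90 to −0.58; edgeR adjusted p = 0.0254). It passed under each of the 3 other scalings of the counts (edgeR adjusted p = 0.0182 to 0.0470). The adjusted p was 0.0763 without R719W replicate 3 and 0.0857, 0.0555 and 0.102 without WT replicate 1, 2 or 3, with log2 fold changes between −1.51 and −1.13 over the 6 fits that left out a library. With so few reads the counting error of a single library was 18.6% to 31.6% of its level.

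miR-142-3p, a miRNA of all blood cell types that is needed for normal development of several of them, was by far the highest of the 8. It stood at 1116, 751 and 829 TMM-normalised CPM in R719W replicates 1, 2 and 3, against 598, 634 and 501 in WT replicates 1, 2 and 3. R719W replicate 1 was the highest library, and the lowest R719W library was still above the highest WT library. The log2 fold change was 0.64 (SE 0.21, 95% interval 0.16 to 1.11), and it did not pass (edgeR adjusted p = 0.0625; 0.0528 to 0.215 over the 13 alternative fits, all of them positive). Unlike miR-150, its SD of 192 in R719W and 68.8 in WT (n = 3 each) was larger than the counting error of 29.0 and 26.4 TMM-normalised CPM, so the libraries of a genotype differed beyond counting.

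miR-223, which in myeloid progenitors restrains Mef2c and so limits granulocyte production, was at 104.9, 147 and 97.2 TMM-normalised CPM in R719W replicates 1, 2 and 3, against 81.2, 73.2 and 82.9 in WT replicates 1, 2 and 3. The genotypes did not overlap, but R719W replicates 1 and 3 lay nearer to the WT libraries than to R719W replicate 2. The WT SD of 5.18 was below the counting error of 9.71 TMM-normalised CPM, so the closeness of the WT libraries does not measure the spread between mice. The log2 fold change was 0.56 (SE 0.23, 95% interval 0.06 to 1.06), and it did not pass (edgeR adjusted p = 0.102). Without R719W replicate 2 the log2 fold change was 0.24. Non-overlap was frequent in these data: of the 6 tested entries 4 did not overlap, 2 above and 2 below WT, while among all tested miRNAs 40.9% did not overlap, 24.9% above and 16.0% below WT.

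**Figure D1:**
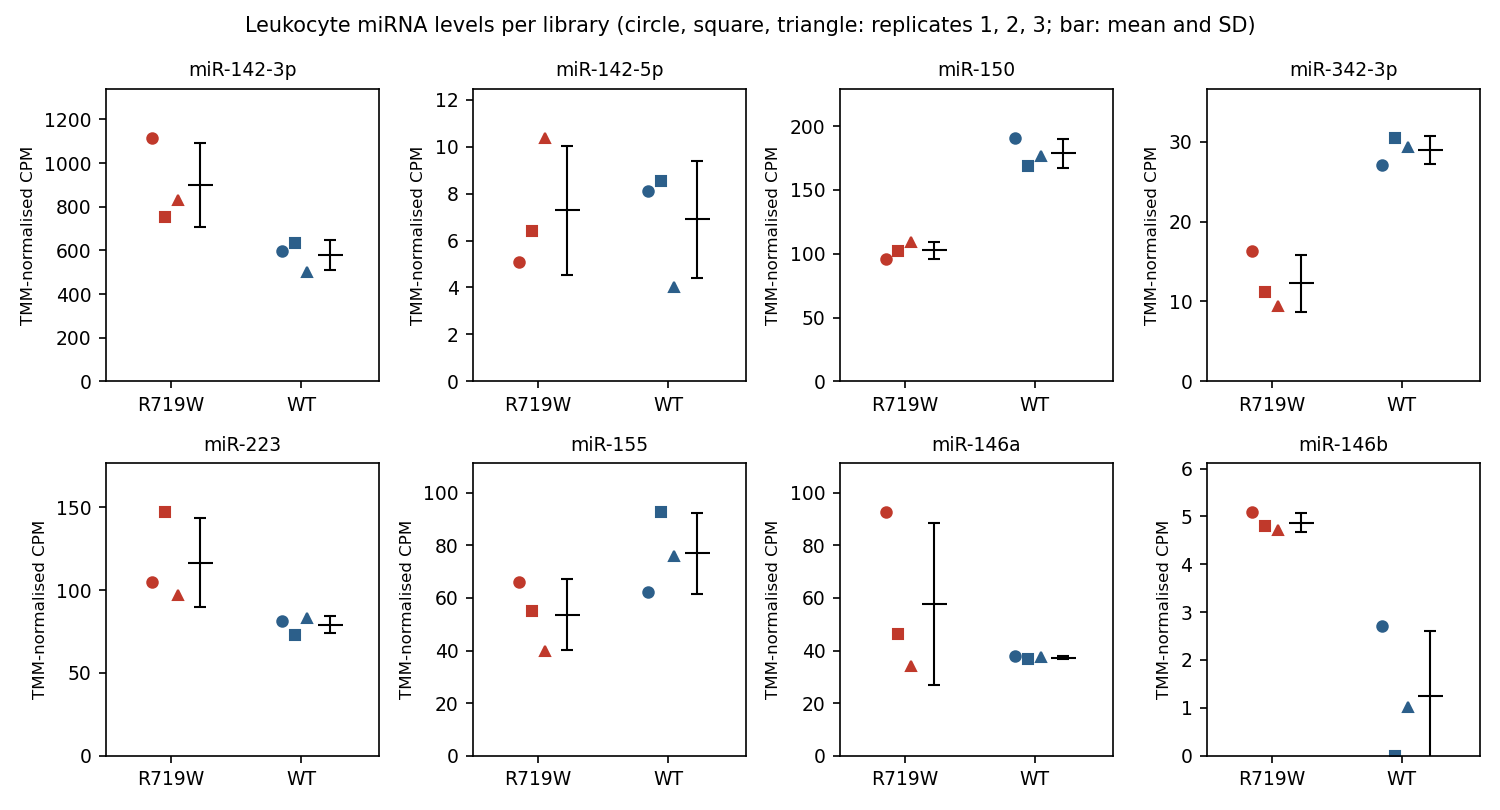
Level of each leukocyte miRNA (vertical axis, TMM-normalised CPM, from 0, scale differs between panels) in the R719W and WT libraries; symbols are replicates 1, 2 and 3, and bars give the mean and SD, drawn down to 0 at most. miR-150 and miR-342-3p lie lower in all 3 R719W libraries, miR-142-3p and miR-223 lie higher, and the values of miR-155 and miR-146a overlap between genotypes.

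Among the miRNAs of activated leukocytes, none passed. miR-155, which in activated T cells, B cells and macrophages represses Socs1 and other brakes on signalling, was at 66.2, 55.2 and 39.6 TMM-normalised CPM in R719W replicates 1, 2 and 3, against 62.3, 92.7 and 75.8 in WT replicates 1, 2 and 3. The genotypes overlapped through R719W replicate 1, which lay above WT replicate 1. Its log2 fold change was −0.52 (SE 0.26, 95% interval −1.10 to 0.06; edgeR adjusted p = 0.160). Without R719W replicate 1 it was −0.73 and passed (edgeR adjusted p = 0.0295), the single fit of 12 alternatives in which it did.

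miR-146a, which is induced by NF-kB and represses the signalling genes Traf6 and Irak1, was at 92.7, 46.4 and 34.0 TMM-normalised CPM in R719W replicates 1, 2 and 3, against 37.9, 36.6 and 37.4 in WT replicates 1, 2 and 3. R719W replicate 1 stood apart, and R719W replicate 3 lay below all WT libraries. In unscaled CPM the genotypes did not overlap, with 88.1, 49.6 and 41.6 in R719W, against 34.2, 39.2 and 31.0 in WT, so this order depended on the scaling. The log2 fold change of 0.62 (SE 0.36, 95% interval −0.18 to 1.42; edgeR adjusted p = 0.209) was 0.08 without R719W replicate 1. That library also held the highest miR-142-3p of the 6. The WT SD of miR-146a, 0.66, was far below the counting error of 6.68 TMM-normalised CPM, so it does not measure the spread between mice.

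miR-146b, its sister with the same seed, had 5, 6 and 5 reads in R719W replicates 1, 2 and 3, against 2, 0 and 1 in WT replicates 1, 2 and 3. All R719W libraries lay above all WT libraries, on 16 reads in all for R719W and 3 for WT. The ratio of R719W to WT was 4.13 on the TMM scale, with an exact 95% counting interval of 1.18 to 22.1 that leaves out the spread between mice. It was not tested beside the others; with no filter on low counts the edgeR adjusted p was 0.149. miR-142-5p had 5, 8 and 11 reads in R719W and 6, 7 and 4 in WT, with overlap; with no filter its log2 fold change was 0.03 (SE 0.53; edgeR adjusted p = 0.975), an error that leaves changes of the size seen in the other entries undetectable at this depth.

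The other arms of these hairpins were at the limit of detection. miR-342-5p had 2, 3 and 0 reads in R719W replicates 1, 2 and 3 and 0 in each WT library, miR-146b* had 1, 1 and 0 in R719W and 0, 1 and 0 in WT, and miR-150* had 0 in all 6. None was above the floor of 3 reads in any library, so no fold is given. Between the arms of miR-142, the 5′ arm gave 0.456, 0.852 and 1.25 reads per 100 reads of the 3′ arm in R719W replicates 1, 2 and 3, against 1.36, 1.35 and 0.806 in WT replicates 1, 2 and 3, with overlap. Arms differ in how well they are ligated and amplified, so the ratio between them is less certain than its comparison between libraries.

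**Figure D2:**
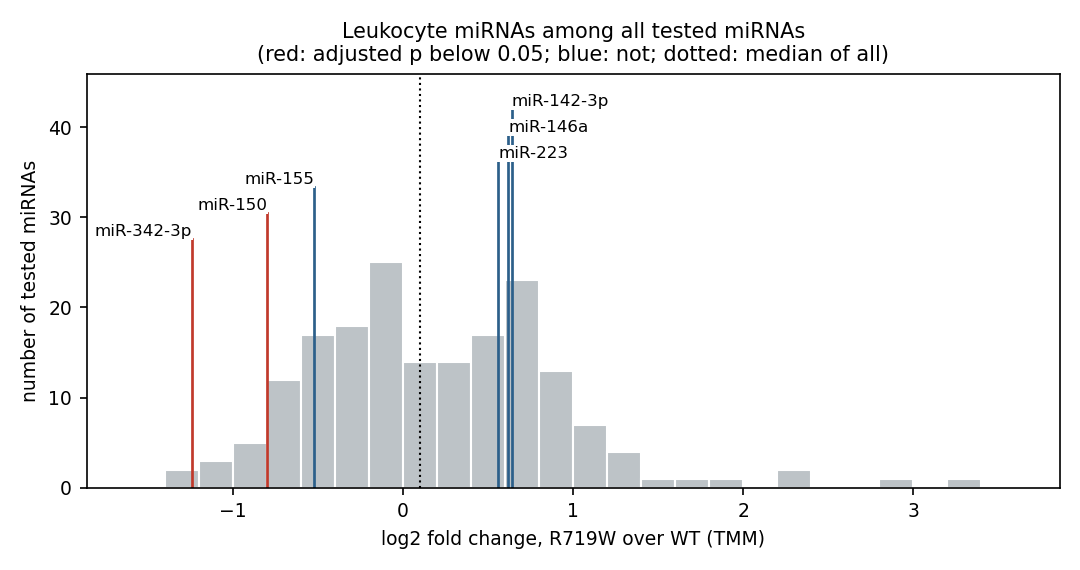
Distribution of the log2 fold change, R719W over WT, of the 181 tested miRNAs (grey bars, number of miRNAs), with the 6 tested leukocyte entries as vertical lines, red where the adjusted p was below 0.05, and the median of all as a dotted line. miR-342-3p at −1.24 lies near the lower end of the distribution and miR-150 at −0.80 within its lower part, while miR-223, miR-146a and miR-142-3p lie between 0.56 and 0.64, inside the bulk of the positive values.

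The order of the 8 levels differed between genotypes. In WT the order from high to low was miR-142-3p, miR-150, miR-223, miR-155, miR-146a, miR-342-3p, miR-142-5p and miR-146b, and each neighbour was separate from the next in every library except miR-223 and miR-155. In R719W, miR-223 (116 TMM-normalised CPM) stood next to miR-150 (102.5), with overlap, and miR-146a (57.7) next to miR-155 (53.7), also with overlap; miR-342-3p, miR-142-5p and miR-146b overlapped each with the next. miR-142-3p ranked 43rd among all listed miRNAs by mean level in R719W and 48th in WT, miR-150 ranked 100th and 79th, and miR-342-3p ranked 179th and 135th. Sequences are ligated with unequal yield, so ranks between miRNAs describe the reads.

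Ratios within a library do not depend on how libraries are scaled to each other, and they set the lymphocyte miRNAs beside the general blood cell miRNA. Since the entries were chosen with their changes known, the ratios are given with no test. For every 100 reads of miR-142-3p there were 8.58, 13.6 and 13.2 reads of miR-150 in R719W replicates 1, 2 and 3, against 31.9, 26.5 and 35.3 in WT replicates 1, 2 and 3. All R719W libraries lay far below all WT libraries, and R719W replicate 1 was the lowest. The mean was 11.8 ± 2.80 in R719W and 31.2 ± 4.41 in WT (SD, n = 3 each), 2.69-fold lower in R719W by the mean of the log2 ratios. For miR-342-3p the values were 1.46, 1.49 and 1.14 in R719W, against 4.52, 4.81 and 5.85 in WT, 3.72-fold lower in R719W and without overlap. For miR-155 they were 5.93, 7.35 and 4.78 in R719W, against 10.4, 14.6 and 15.1 in WT, 2.23-fold lower and without overlap, although its level by itself overlapped.

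The ratio of the myeloid miR-223 to miR-142-3p overlapped between genotypes and had a wide spread. There were 9.40, 19.6 and 11.7 reads of miR-223 per 100 reads of miR-142-3p in R719W replicates 1, 2 and 3, against 13.6, 11.5 and 16.5 in WT replicates 1, 2 and 3, and the values of the genotypes were interleaved. For miR-146a they were 8.30, 6.18 and 4.10 in R719W, against 6.33, 5.77 and 7.46 in WT, also interleaved. The differences in mean log2 ratio, R719W minus WT, were −0.09 for miR-223 and −0.13 for miR-146a, smaller than the SDs between R719W libraries (0.54 and 0.51), and their sign turned when single libraries were left out. Set against each other, there were 91.3, 69.6 and 112.6 reads of miR-150 per 100 reads of miR-223 in R719W replicates 1, 2 and 3, against 235, 230 and 213 in WT replicates 1, 2 and 3. R719W replicates 1 and 2 thus held fewer reads of miR-150 than of miR-223 and R719W replicate 3 more, while miR-150 exceeded miR-223 in every WT library by a wide margin. The ratio was 2.53-fold lower in R719W, without overlap. Since miR-150 stood lower and miR-223 higher in level, a lower ratio follows from those levels and is no separate result. The share of all tested miRNAs with such a ratio to miR-223 was not computed.

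Because miR-142-3p stood higher in R719W, a lower ratio to it was common. Among the 180 other tested miRNAs, 45.6% had a ratio to miR-142-3p that was lower in all R719W libraries than in any WT library. The median difference in log2 ratio over these 180 was −0.54. Against that, the differences were −1.89 for miR-342-3p, the 2nd lowest of the 180, −1.42 for miR-150, the 13th lowest, and −1.16 for miR-155, the 28th lowest. The lack of overlap in the ratios of miR-150, miR-342-3p and miR-155 to miR-142-3p is therefore near the background. Dividing by miR-142-3p shifts every miRNA of a library by the same amount on the log2 scale. These ranks therefore restate the log2 fold changes given above and are no separate result.

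**Figure D3:**
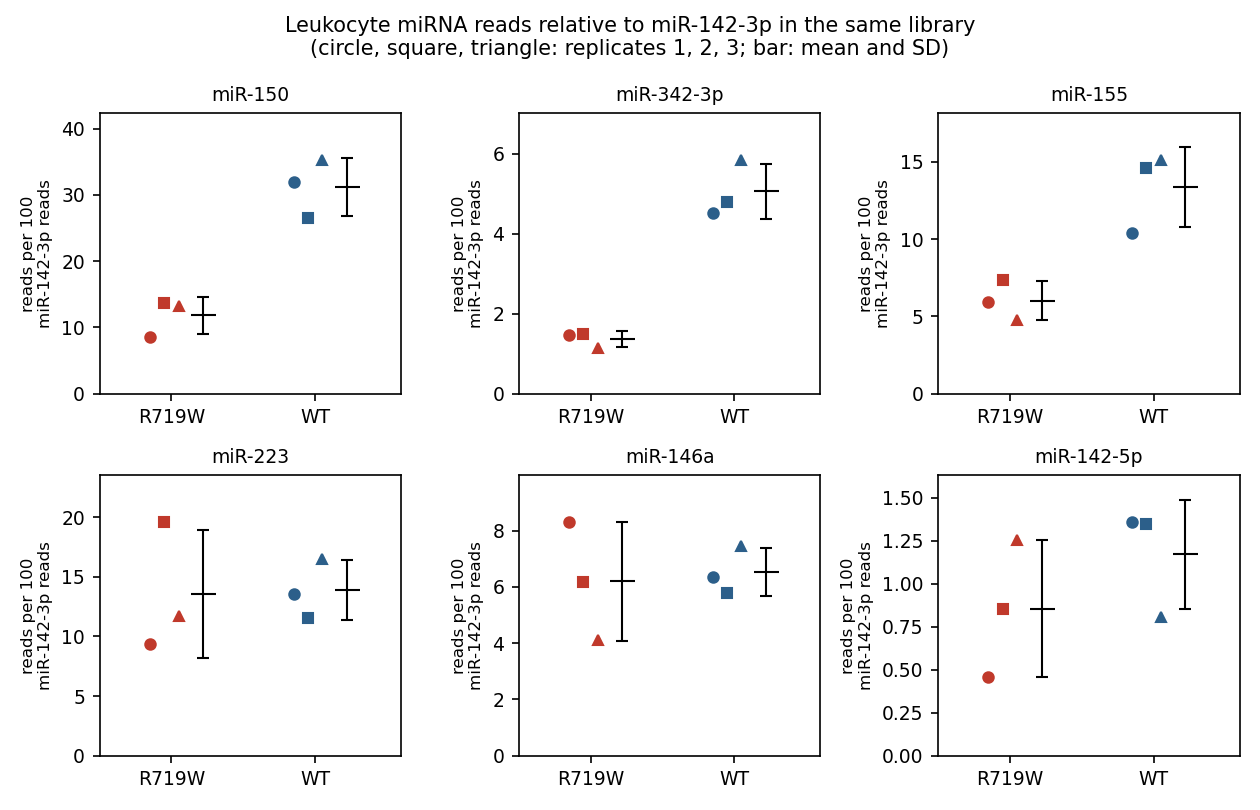
Reads of each leukocyte miRNA per 100 reads of miR-142-3p in the same library (vertical axis, from 0, scale differs between panels) in R719W and WT; symbols are replicates 1, 2 and 3, and bars give the mean and SD. For miR-150, miR-342-3p and miR-155 all R719W libraries lie below all WT libraries, and for miR-223, miR-146a and miR-142-5p the genotypes are interleaved.

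The choice of scaling moved all fold changes together. The median shift in log2 fold change from TMM was −0.11 when DESeq2's size factors were used and 0.21 when only library totals were. None of the 6 tested entries changed direction under any of the 3 other scalings. With library totals alone, miR-142-3p was at 0.82, miR-146a at 0.79 and miR-223 at 0.77, and none passed (edgeR adjusted p = 0.0528, 0.0926 and 0.0686).

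**Figure D4:**
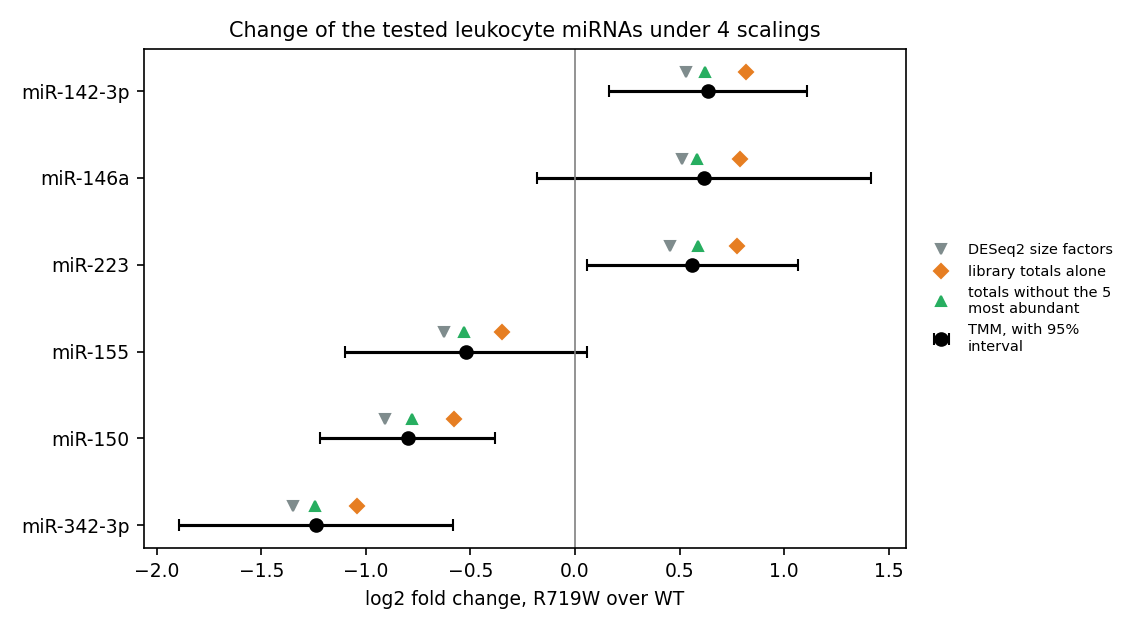
Log2 fold change, R719W over WT, of the 6 tested leukocyte miRNAs (horizontal axis) with TMM scaling and its 95% interval (black) and with 3 other scalings (coloured symbols). All scalings keep miR-142-3p, miR-146a and miR-223 above 0 and miR-155, miR-150 and miR-342-3p below 0; the intervals of miR-146a and miR-155 include 0.

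Other miRNAs linked to the same cell types were read from lists that are less specific to leukocytes. Of 10 further lymphocyte-linked miRNAs (the miR-181 family and the miR-17 to miR-92a cluster), 7 were tested; 1 fell, 6 did not pass, and all 7 had a negative log2 fold change with TMM (median −0.27, beside 0.10 over all tested), while miR-181a, miR-181b and miR-181c turned to 0.12, 0.07 and 0.09 with library totals alone. Members of the miR-17 to miR-92a cluster lie together, so the 7 signs do not count as independent. With library totals alone 0 of the 7 passed, with totals without the 5 most abundant miRNAs 0, and with DESeq2's size factors 1. The one that fell with TMM, miR-181d, averaged 65.2 ± 10.1 TMM-normalised CPM in R719W and 113 ± 8.06 in WT (SD, n = 3 each; edgeR adjusted p = 0.0276; log2 fold change −0.79, SE 0.21). miR-19b, which promotes lymphocyte survival, averaged 9.09 ± 6.47 in R719W and 21.8 ± 6.85 in WT (SD, n = 3 each; edgeR adjusted p = 0.0843) and did not pass. The untested members of this list did not share a direction. miR-18a was higher in R719W without overlap, at 9.64 ± 1.89 TMM-normalised CPM against 6.72 ± 0.63 in WT (SD, n = 3 each). With 13 reads each over all libraries, miR-19a had a lower mean in R719W and miR-92a a slightly higher one, both with overlap.

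Of 13 further miRNAs known from macrophages or NF-kB signalling, 8 were tested, of which 5 rose and 3 did not pass. All 8 were positive with TMM (median 0.68), although miR-221 was only at 0.0028 and turned to −0.10 with DESeq2's size factors. The 5 were miR-21, miR-132, miR-125a-5p, miR-99b and let-7e, where 12.7% of all tested miRNAs rose. Of these, miR-125a-5p, miR-99b and let-7e belong to a single cluster, so their rises do not count as independent. miR-21, which macrophages make but which fibroblasts and muscle cells also make, averaged 1169 ± 267 TMM-normalised CPM in R719W and 315 ± 17.7 in WT (SD, n = 3 each; edgeR adjusted p = 4.02e-04). miR-132 averaged 122.9 ± 54.9 in R719W and 49.7 ± 18.3 in WT (SD, n = 3 each; edgeR adjusted p = 0.0325). With DESeq2's size factors 2 of the 8 passed, with totals without the 5 most abundant miRNAs 3 passed, and with library totals alone 5 passed. The members with too few reads to be tested did not share a direction. miR-147, induced in activated macrophages, was higher in R719W without overlap, at a mean of 9.64 TMM-normalised CPM against 3.99 in WT. miR-9, given above as a neuronal marker (8.48 against 11.4), and miR-222 (7.15 against 8.13) had lower means in R719W, with overlap. miR-212 had 2 reads over all libraries, and miR-511, known from tissue macrophages, had 0 reads in all 6 libraries.

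Markers of other cells moved as well. The fibroblast entries miR-199a-5p, the shared 3′ arm of miR-199a and miR-199b, and miR-214 summed to 955 to 1323 TMM-normalised CPM in R719W and 166 to 203 in WT, and all 3 rose (2 of the 3 with DESeq2's size factors). The erythroid miR-144, miR-451 and miR-486 summed to 1361 to 2570 in R719W and 1966 to 3301 in WT, with overlap; all 3 were negative (median −0.62) and 0 of 3 passed in edgeR, with 1 (miR-144) at an unadjusted edgeR p below 0.05, and 0 of 3 passed in DESeq2, with 2 at an unadjusted p below 0.05. The part of red blood cells or other blood left in the ventricle in the lower lymphocyte miRNAs was not tested. The endothelial miR-126-3p and miR-126-5p summed to 15193 to 16805 in R719W and 17980 to 22206 in WT, without overlap. Each by itself overlapped between genotypes. Their median log2 fold change was −0.30 with TMM and −0.09 with library totals alone. In edgeR or in DESeq2 0 of 2 passed, and at an unadjusted p below 0.05 there were 0 in edgeR and 1 in DESeq2. Of the 5 cardiomyocyte miRNAs, whose sums are given above and overlapped between genotypes, 4 were negative with TMM (3 with library totals alone, where miR-133a turned to 0.10) and 1 fell, miR-499, at 6574 ± 1242 TMM-normalised CPM in R719W and 14447 ± 1349 in WT (SD, n = 3 each; edgeR adjusted p = 0.00808). The smooth muscle miR-143 and miR-145 summed to 17214 to 25584 in R719W and 20924 to 36206 in WT, with overlap; both were negative with TMM, miR-145 turned to 0.03 with library totals alone, and 0 of 2 passed in edgeR or in DESeq2, with 0 and 1 at an unadjusted p below 0.05. The part of these other cells in the leukocyte results was not tested.

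The entries closest in pattern were found by the root mean square difference between log2 levels over the 6 libraries, each centred on its own mean. Closest to miR-150 were miR-181d (0.0949) and miR-378 (0.0984), where the median over all tested miRNAs was 0.531; miR-342-3p lay at 0.368 from miR-150, miR-155 at 0.371 and miR-142-3p at 0.752. Closest to miR-342-3p were miR-499 (0.257) and miR-805 (0.276), and miR-150 was the 9th closest and miR-155 the 10th. Closest to miR-142-3p were miR-1839-5p (0.0702) and miR-188-5p (0.128), and closest to miR-223 were miR-381 (0.194) and miR-15b (0.196). None of these 4 entries had another leukocyte entry as its nearest neighbour. The difference between genotypes is part of each pattern, so miRNAs that differ by the same amount come out as close.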

How the data were processed

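Small-RNA libraries of 6 left ventricles, 3 R719W and 3 WT, were compared. Per the labels' protocols, a kit that keeps small RNAs gave the RNA for multiplexed libraries; the aligner, its settings, the miRNA release and the genome build are not stated in the sources used here. Per the file headers, the authors deposited read counts per mature miRNA, with no normalization, in 1 table per genotype. The authors also deposited a normalized value, which equals CPM over the listed miRNAs within a relative gap of 4.6e-15. Columns were assigned by the barcode in header and description.

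The test was that of edgeR 4.0.16 (R 4.3.3) on the counts: filterByExpr on genotype (minimum count 10, in effect 10.5 CPM in 3 libraries, total 15) kept 181 of 698 miRNAs, TMM factors ran from 0.83 to 1.22, and glmQLFit and glmQLFTest were two-sided. The SE is the log2 fold change, without its sign, over the square root of F, and intervals use the fit's degrees of freedom. The step was also run on counts simulated with its own fitted dispersions. Such a run cannot show how the scaling or a single library moves these results. Patterns used log2 of TMM-normalised CPM plus 0.5. No pair of replicates agreed within sampling noise (chi-square 32.8 to 283 per degree of freedom). Exact permutation of 3 against 3 libraries allows no p below 0.1, so none is given. Alternatives were DESeq2 1.42.0, 3 other scalings, 2 other filters, a replicate block, and fits without each library in turn.

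The entries and lists were chosen with earlier results of these data known. The miRNAs named are the 8 entries, other arms of their hairpins, up to 2 of each other list with the smallest p and any called, and the 2 nearest patterns of miR-150, miR-342-3p, miR-142-3p and miR-223. Named outside that rule, after their values were seen, are miR-147, miR-511, miR-9, miR-212, miR-222, miR-122, miR-18a, miR-19a, miR-92a and members that turned sign.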

Additional observations from a re-analysis of the deposited data

How the results depend on the processing

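The number of leukocyte entries that fell, 2 with TMM, was 1 with library totals alone (miR-342-3p), 1 with totals without the 5 most abundant miRNAs (miR-342-3p), 1 with a filter of 100 reads in 3 libraries (miR-150, since miR-342-3p was then untested), 1 with the replicate block (miR-342-3p), and 0 to 3 when a library was left out (3 without R719W replicate 1, with miR-155). No alternative called an entry higher. Over all tested miRNAs, 23 rose and 13 fell. The rises numbered 12 with DESeq2's size factors, 14 with totals without the 5 most abundant, 12 with the filter of 100 reads, 12 with DESeq2 itself, and 4 to 32 when a library was left out. The falls numbered 3 with library totals alone, 6 with totals without the 5 most abundant, and 0 to 24 when a library was left out. The split of 34 rises to 3 falls with library totals alone, beside 12 to 15 with DESeq2's size factors, differed by scaling alone; why single libraries moved the counts was not tested.

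Same-numbered libraries of the genotypes did not deviate together (correlations −0.39 to 0.01, and 0 of 6 libraries correlated best with its own number), so the replicate number was not taken as a pairing; with it as a block miR-150 had an adjusted p of 0.058 and miR-342-3p one of 0.013. The within-library difference in log2 ratio to miR-142-3p, leaving out each library in turn, ran from −1.54 to −1.21 for miR-150, −1.97 to −1.77 for miR-342-3p, −1.33 to −0.9997 for miR-155, −0.39 to 0.14 for miR-223, −0.37 to 0.14 for miR-146a and −0.87 to −0.14 for miR-142-5p, and that of miR-150 to miR-223 from −1.50 to −1.16. Depth limits miR-342-3p, miR-142-5p and miR-146b, each under 30 reads in every library.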
